A study of Mus musculus with 6 samples.

Results

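Long intergenic non-coding RNAs (lincRNAs) were read in TM3 cells, an immature mouse Leydig cell line, after 48 h in 100 nM pyrotinib (3 libraries) or in 0.1‰ DMSO (3 libraries). Pyrotinib is an irreversible inhibitor of the ErbB receptor kinases, and DMSO is its solvent. All libraries came from the same line, with no genetic change and no other agent named, seeded in plates in the growth phase, and were made from poly(A)-captured RNA. The lincRNAs were chosen by type and read count, whatever their response: they are the autosomal rows of the deposited gene table with the type lincRNA and at least 60 reads summed over the 6 libraries, leaving out the imprinted H19, Meg3, Rian and Mirg, Gas5 and the small nucleolar RNA host genes. Of 54532 rows, 5559 had the type lincRNA, 4915 of those lay on autosomes, and 363 met the rule. Among the 4907 autosomal rows left after the named exclusions, 3163 had no read and 1381 had 1 to 59 reads. Just inside the minimum, 5830454E08Rik and Gm34719 each had 60 reads; just outside it, E330013P04Rik and A430110L20Rik each had 59. The 363 were split by position: 270 overlapped no protein-coding gene and are called intergenic here, and 93 overlapped one, on either strand.

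LincRNAs are made by RNA polymerase II and are mostly capped, spliced and polyadenylated like mRNAs, but encode no known protein. Many stay in the nucleus, where some act as scaffolds of nuclear bodies, and others carry microRNAs in their introns or are made from a promoter shared with a neighbouring gene. As a class they are known for low levels and for patterns particular to cell types. In Leydig cells, the steroid-making cells of the testis, ErbB receptors are known to take part in the response to luteinizing hormone.

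The label of the line was set against markers. Of 9 Leydig markers, 7 had a mean under 1 CPM (counts per 1e6 reads, scaled between libraries), and Hsd3b6 and Lhcgr had no read. Their summed level was 4.37 to 5.5 CPM in DMSO and 6.14 to 7.74 CPM in pyrotinib, and the part of this difference in any lincRNA result was not tested. Fibroblast markers summed to between 16082 and 17194 CPM. Library totals ran from 15005737 to 16171030 reads. The mitochondrial share of reads was 2.03% to 2.16% in DMSO and 2.7% to 3.6% in pyrotinib.

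Mature microRNAs were found inside 7 lincRNAs, on the same strand, according to RefSeq (GRCm38.p6). The search did not cover every autosome, so 7 is not a count over all 363. Their sequences show which microRNAs the levels of these host transcripts concern; capitals mark the seed, bases 2 to 8, which pairs with targets. Within Mir17hg, miR-17-5p and miR-20a-5p share 1 seed and miR-19a-3p and miR-19b-3p share another, while the remaining hosts printed here carry other seeds.
miR-101a-3p: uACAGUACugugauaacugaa
miR-31-5p: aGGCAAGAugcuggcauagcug
let-7d-5p: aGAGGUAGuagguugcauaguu
miR-155-5p: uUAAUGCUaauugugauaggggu
miR-1839-5p: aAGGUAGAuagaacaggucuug
miR-17-5p: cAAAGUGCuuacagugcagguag
miR-20a-5p: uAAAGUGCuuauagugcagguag
miR-18a-5p: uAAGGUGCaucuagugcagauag
miR-19a-3p: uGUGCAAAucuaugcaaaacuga
miR-19b-3p: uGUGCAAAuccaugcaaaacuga
miR-92a-3p: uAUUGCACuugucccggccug

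RefSeq start-site windows (GRCm38.p6, 250 bases before to 50 after the start, read along the transcript) were found for 150 lincRNAs by symbol, and for 126 of them the start lay within 1000 bases of the table's own. Windows are printed for the most abundant lincRNA, a large rise, a large fall and a fall that shares its promoter region with a protein-coding gene. Capitals mark matches on either strand to 6 motifs: TATAAA (a core promoter element), CCAAT (bound by NF-Y), GGGCGG (GC box), TGANTCA (a form of the AP-1 site), GCGTGGGCG (Egr site, whose end can run into GGGCGG) and CACGTG (E-box). Malat1 at chr19:5802623-5802922, minus strand, holds none of the 6. The window of 1700001L05Rik at chr15:83367248-83367547, minus strand, holds 4 GC boxes and 2 E-boxes in 30 CpG. That of E230001N04Rik at chr17:28522406-28522705, plus strand, holds 1 TGANTCA. Gm7160 at chr1:105990233-105990532, minus strand, holds 2 GC boxes and 1 CCAAT.
Malat1: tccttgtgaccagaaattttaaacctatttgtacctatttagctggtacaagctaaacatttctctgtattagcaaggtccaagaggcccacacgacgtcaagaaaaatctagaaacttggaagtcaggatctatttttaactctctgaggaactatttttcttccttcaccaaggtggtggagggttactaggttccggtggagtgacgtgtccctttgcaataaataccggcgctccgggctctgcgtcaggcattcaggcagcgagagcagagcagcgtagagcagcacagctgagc
1700001L05Rik: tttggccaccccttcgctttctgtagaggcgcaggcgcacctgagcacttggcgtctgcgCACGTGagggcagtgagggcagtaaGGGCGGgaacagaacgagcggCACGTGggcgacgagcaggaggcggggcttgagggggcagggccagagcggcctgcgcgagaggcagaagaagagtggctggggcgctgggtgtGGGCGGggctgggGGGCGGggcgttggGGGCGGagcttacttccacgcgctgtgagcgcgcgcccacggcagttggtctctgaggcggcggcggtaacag
E230001N04Rik: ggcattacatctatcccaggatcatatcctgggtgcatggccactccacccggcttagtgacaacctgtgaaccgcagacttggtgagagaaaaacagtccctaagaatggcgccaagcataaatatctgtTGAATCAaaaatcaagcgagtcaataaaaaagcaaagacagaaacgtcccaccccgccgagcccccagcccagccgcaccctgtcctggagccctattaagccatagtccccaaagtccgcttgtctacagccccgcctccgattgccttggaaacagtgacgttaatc
Gm7160: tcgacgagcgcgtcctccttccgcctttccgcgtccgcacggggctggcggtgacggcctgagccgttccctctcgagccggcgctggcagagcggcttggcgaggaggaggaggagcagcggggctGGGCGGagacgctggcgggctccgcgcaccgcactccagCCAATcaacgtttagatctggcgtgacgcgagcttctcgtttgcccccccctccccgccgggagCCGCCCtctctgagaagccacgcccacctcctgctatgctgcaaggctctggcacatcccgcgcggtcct

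Across the 126 windows, GGGCGG stood in 62 (49.2%), against 35.7% of the 32851 RefSeq windows. TGANTCA stood in 18 (14.3% against 7.81%), CACGTG in 14 (11.1% against 7.15%), TATAAA in 17 (13.5% against 13.6%) and CCAAT in 46 (36.5% against 37.4%). GCGTGGGCG was in none, against 0.612% of all windows. Median CpG content, observed over expected, was 0.53 in the lincRNA windows and 0.38 in all windows. These shares describe letters in the windows only.

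Most of the lincRNAs were scarce. Their median level was 1.06 FPKM (the deposited level, scaled for transcript length and library depth), against 6.8 FPKM for the 11755 protein-coding genes tested. On the FPKM scale, 17 had a mean of 10 or more, 172 (47.4%) had less than 1, and the range ran from 0.0912 to 367. Intergenic lincRNAs had a median of 1.26 FPKM and overlapping ones 0.821 FPKM. A single gene held nearly as many reads as all others together: Malat1 took 48.8% of the 484328 reads in the 363 lincRNAs, and the 5 with most reads took 65.3%.

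**Figure D1:**
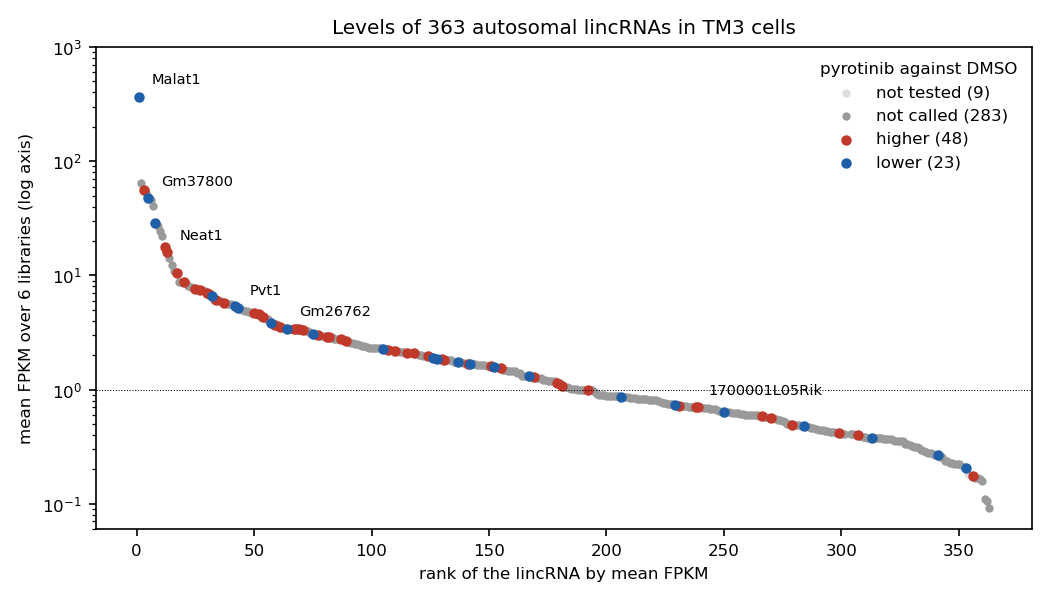
Mean FPKM over the 6 libraries (log axis) of each of the 363 lincRNAs, ordered by rank, with the dotted line at 1 FPKM; red points rose, blue points fell. Malat1 stands alone at 367 FPKM, 172 lincRNAs lie under the line, and rises and falls occur at all levels.

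By mean FPKM the 10 highest were Malat1 (367 FPKM), Gm26917 (64.2), Gm26809 (55.8), 1810058I24Rik (52.4), Gm37800 (47.5), Gm10076 (45.5), Epb41l4aos (40.3), AU020206 (28.6), Gm13056 (26.9) and Gm3716 (24.6). All 10 were intergenic. The lincRNA type does not hold in every annotation: of 194 lincRNAs with a RefSeq symbol, RefSeq gives 183 as lncRNA, 7 as protein-coding and 4 as pseudogenes, transcribed or not. Among the 7 is 1810058I24Rik, known as Stmp1, which encodes a small mitochondrial protein, and 4 of the 7 (Zfp469, Gm39469, Gm6712 and Gm46430, named here after their values were seen) are among the rises below.

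Of the 354 lincRNAs with enough reads to test, 48 rose and 23 fell in pyrotinib (edgeR quasi-likelihood test, Benjamini-Hochberg adjusted p under 0.05 over 14125 genes). That is 13.6% higher and 6.5% lower; of all 14125 genes tested, 13.2% were higher and 12.8% lower, 26.0% in all. The groups did not overlap for 119 lincRNAs (33.6%), against 40.9% of all genes. The 9 untested lincRNAs had 60 to 83 reads. In cell populations such as these, fewer cells of a type and less RNA per cell cannot be told apart.

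Both classes gave different splits, which were not tested against each other. Of 263 intergenic lincRNAs, 37 rose (14.1%) and 11 fell (4.18%). Their median log2 fold change was 0.18, with 67.3% above 0, against a median of 0.0 and 50.3% above 0 over all genes tested. The scaling between libraries itself centres all genes near 0. Of 91 overlapping lincRNAs, 11 rose (12.1%) and 12 fell (13.2%), and their median log2 fold change was 0.08, with 51.6% above 0. The share of intergenic lincRNAs called higher was thus near that of all genes, and the share called lower was smaller. Folds among the 48 rises ran from 1.22 to 5.57, with a median of 1.76, and 15 reached 2-fold. Folds among the 23 falls ran from 1.28 to 8.03, with a median of 2.0, and 12 reached 2-fold.

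**Figure D2:**
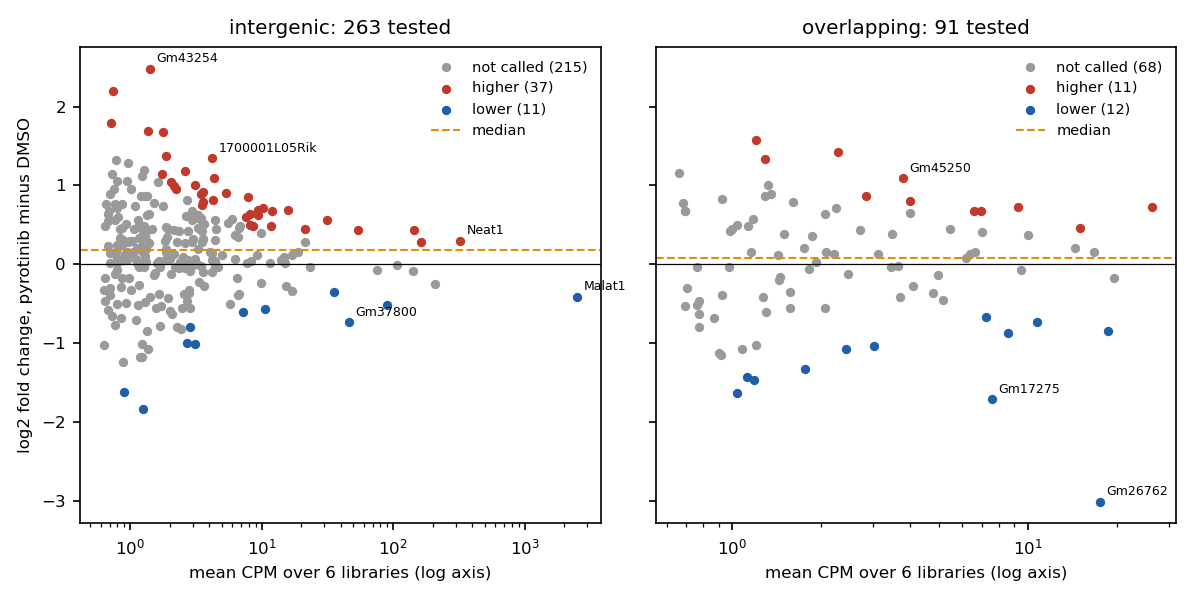
Log2 fold change of each tested lincRNA against its mean CPM (log axis), for 263 intergenic (left) and 91 overlapping lincRNAs (right); the dashed line is the class median. Intergenic points lie mostly above 0, with 37 rises and 11 falls, and the overlapping class has 11 rises and 12 falls, with Gm26762 lowest.

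Calls were more frequent among lincRNAs with more reads. At a mean of 10 CPM or more, 12 of 38 lincRNAs rose and 8 fell; from 2 to 10 CPM, 27 of 136 rose and 9 fell; under 2 CPM, 9 of 180 rose and 6 fell. Changes in the last group were mostly not detectable at this depth unless large. The shares of all genes called at these levels are not given here, so the counts do not set lincRNAs apart from other genes.

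Single libraries and base composition moved with these counts. DMSO replicate 2 was the highest of the 6 libraries for 19 of the 23 falls and the lowest for 26 of the 48 rises. Without it, 16 lincRNAs rose and 10 fell. Without pyrotinib replicate 3, 30 rose and 15 fell, and without DMSO replicate 3, 33 rose and 14 fell. Calls held with each library left out in turn for 15 of the 48 rises and 10 of the 23 falls. The matching shares of all genes, with a library left out or extreme in DMSO replicate 2, are not given here. These counts therefore cannot be read as particular to lincRNAs. Where the call of a named gene was lost with a library left out, the highest adjusted p is given beside it with that library, and others may also end the call. In pyrotinib replicates 1 and 3, log2 ratios changed by -0.235 and -0.268 for each 10 points of exonic GC content, while the other 4 libraries lay between -0.012 and 0.018. Median GC content was 45.4% for the rises, 48.5% for the falls and 49.2% for all genes tested. After a correction for GC content, 39 lincRNAs rose and 24 fell, against 13.2% and 14.9% of all genes, and 36 of the 48 rises and 22 of the 23 falls kept their call. The intergenic median was then 0.16 and the overlapping median -0.01. Pyrotinib replicate 2 alone against DMSO called 7 higher and 7 lower (3.46% and 3.44% of all genes).

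The same shift was read library by library, as the median log2 ratio to the DMSO mean, of which each DMSO library is part. For intergenic lincRNAs it was 0.02, -0.05 and 0.04 in DMSO replicates 1 to 3, and 0.15, 0.11 and 0.22 in pyrotinib replicates 1 to 3. The groups did not overlap, but only the DMSO libraries are part of their own reference. Pyrotinib replicate 2 was the lowest of the treated libraries. For overlapping lincRNAs it was -0.01, 0.06 and -0.02 in DMSO and 0.12, -0.05 and 0.13 in pyrotinib, so the groups overlapped. For protein-coding genes all 6 values lay between -0.01 and 0.01, but they are most of the genes tested, which the scaling between libraries centres near 0. The share of all reads that fell in the 363 lincRNAs moved the other way. It was 0.502%, 0.573% and 0.524% in DMSO and 0.483%, 0.486% and 0.499% in pyrotinib, without overlap. Malat1 alone took 0.259% to 0.318% of reads in DMSO and 0.209% to 0.222% in pyrotinib, and the others took 0.243% to 0.255% and 0.266% to 0.277%.

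**Figure D3:**
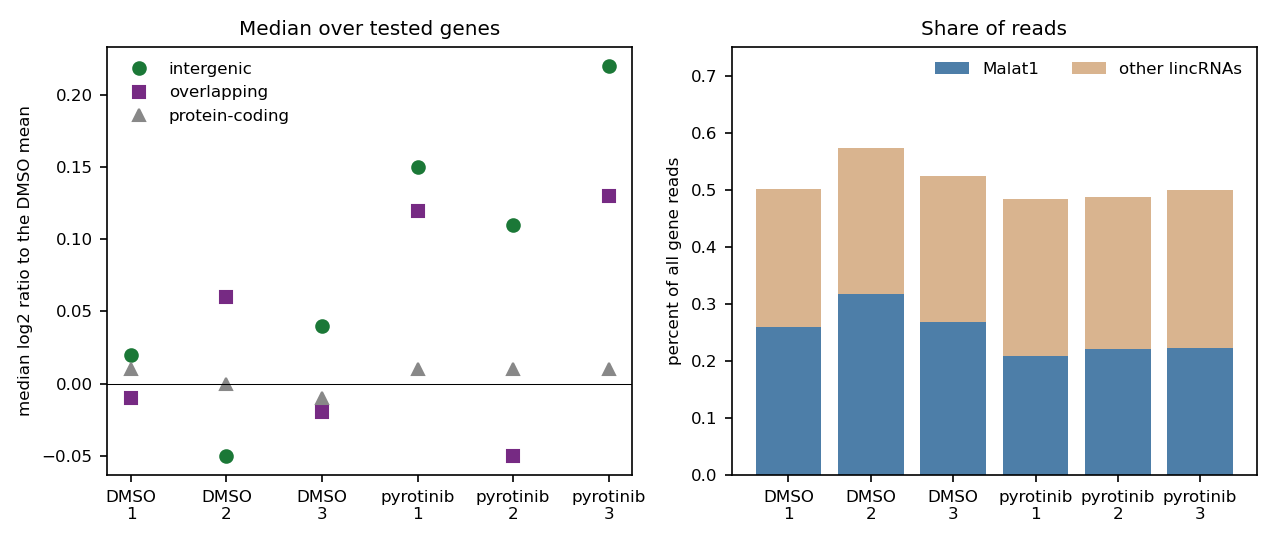
Left, median log2 ratio to the DMSO mean in each library for intergenic lincRNAs, overlapping lincRNAs and protein-coding genes; right, percent of all gene reads in Malat1 and in the other lincRNAs, stacked. Intergenic medians are 0.11 to 0.22 in pyrotinib and at most 0.04 in DMSO, while the Malat1 share is 0.209% to 0.222% in pyrotinib and at least 0.259% in DMSO.

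Malat1 and Neat1 are neighbours on chromosome 19 and mark different nuclear bodies: Malat1 collects in nuclear speckles, which store splicing factors, and Neat1 is the scaffold of paraspeckles. Counts per gene do not separate the transcript forms of either gene, and poly(A) capture does not target forms without a poly(A) tail. The values are therefore not measures of the bodies. Malat1 (chr19:5795690-5802672, minus strand) was at 2591, 3294 and 2704 CPM in DMSO and at 2068, 2188 and 2191 CPM in pyrotinib. All treated libraries lay below all controls, and DMSO replicate 2 was the highest. The decrease in Malat1 was 1.33-fold, or -0.41 ± 0.09 (SE) on the log2 scale (adjusted p = 0.0023). Neat1 (chr19:5824708-5845478, minus strand) was at 283, 299 and 292 CPM in DMSO and at 330, 428 and 316 CPM in pyrotinib. The groups did not overlap, and pyrotinib replicate 2 stood above the rest. Neat1 rose 1.23-fold (log2 fold change 0.3 ± 0.1 SE, adjusted p = 0.035); the adjusted p was 0.11 without DMSO replicate 3 and 0.056 after the GC correction. Frmd8, the protein-coding gene nearest to Neat1, had a log2 fold change of 0.11 (adjusted p = 0.41).

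RNA levels of genes for proteins of both bodies changed in both directions, and the proteins themselves were not measured. Of 15 paraspeckle protein genes, 3 rose and 4 fell, with a median log2 fold change of -0.17; of all genes tested, 13.2% were higher and 12.8% lower. Pspc1, a core paraspeckle protein, rose 2.25-fold from a mean of 17.7 to 39.8 CPM (adjusted p = 3.3e-06), Sfpq, which binds Neat1, rose 1.6-fold (adjusted p = 0.00028) and Cpsf6 rose 1.36-fold (adjusted p = 0.0029). Dazap1 fell 1.99-fold (adjusted p = 5.1e-05) and Taf15 fell 1.5-fold (adjusted p = 0.0002), followed by Hnrnph3 (1.44-fold) and Hnrnpk (1.19-fold; adjusted p = 0.026, and 0.12 without pyrotinib replicate 3). Nono, the usual partner of Sfpq, had a log2 fold change of -0.17 (adjusted p = 0.14). Of 15 nuclear speckle protein genes, 3 rose and 5 fell, with a median of -0.05. Son, a scaffold of the speckle, rose 1.52-fold (adjusted p = 0.00012), and Srsf6 and Srsf7 rose 1.58-fold and 1.28-fold. The adjusted p of Srsf7 was 0.096 without DMSO replicate 2 and 0.079 after the GC correction, and those of Srsf2 and Srsf5, both among the falls, were 0.074 and 0.072 without DMSO replicate 2. Acin1 fell 1.49-fold and Rbm25 fell 1.42-fold, and Srrm2, the other scaffold, had a log2 fold change of -0.12 (adjusted p = 0.25).

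Genes that process or destroy such RNAs were read from fixed lists. Of 18 genes of the nuclear RNA exosome and its adaptors, 1 rose (Zfc3h1, 1.25-fold) and 1 fell (Zc3h3, 1.44-fold), with a median of -0.04. Their adjusted p rose to 0.12 without DMSO replicate 3 for Zfc3h1 and to 0.21 without DMSO replicate 2 for Zc3h3, which stood at 0.072 after the GC correction. In the nonsense-mediated decay list, 1 gene of 10 passed the test, Smg5, which fell 1.26-fold (adjusted p = 0.013; 0.061 without pyrotinib replicate 3). Of 14 Integrator genes, which act in 3′ end formation of small nuclear RNAs and in early termination, 2 passed the test, and both rose (Ints6, 1.56-fold; Ints12, 1.35-fold). The log2 fold change of Ints12 went from 0.43 to 0.16 after the GC correction (adjusted p = 0.29), and its adjusted p was 0.15 without pyrotinib replicate 3. Of 15 genes for cleavage and polyadenylation, 4 rose and 1 fell: Pcf11, a termination factor, rose 1.48-fold (adjusted p = 0.00088), Rbbp6 rose 1.38-fold, Cstf3 rose 1.32-fold, Cstf2 rose 1.2-fold and Fip1l1 fell 1.21-fold. After the GC correction 3 of these 4 rises did not pass: the log2 fold change went from 0.46 to 0.17 for Rbbp6 (adjusted p = 0.16), from 0.26 to 0.1 for Cstf2 (adjusted p = 0.32) and from 0.4 to 0.26 for Cstf3 (adjusted p = 0.053). With a library left out, the adjusted p reached 0.17 for Cstf2 (DMSO replicate 3), 0.1 for Cstf3 (DMSO replicate 3) and 0.14 for Fip1l1 (DMSO replicate 2). These shares stand beside 13.2% higher and 12.8% lower over all genes.

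**Figure D4:**
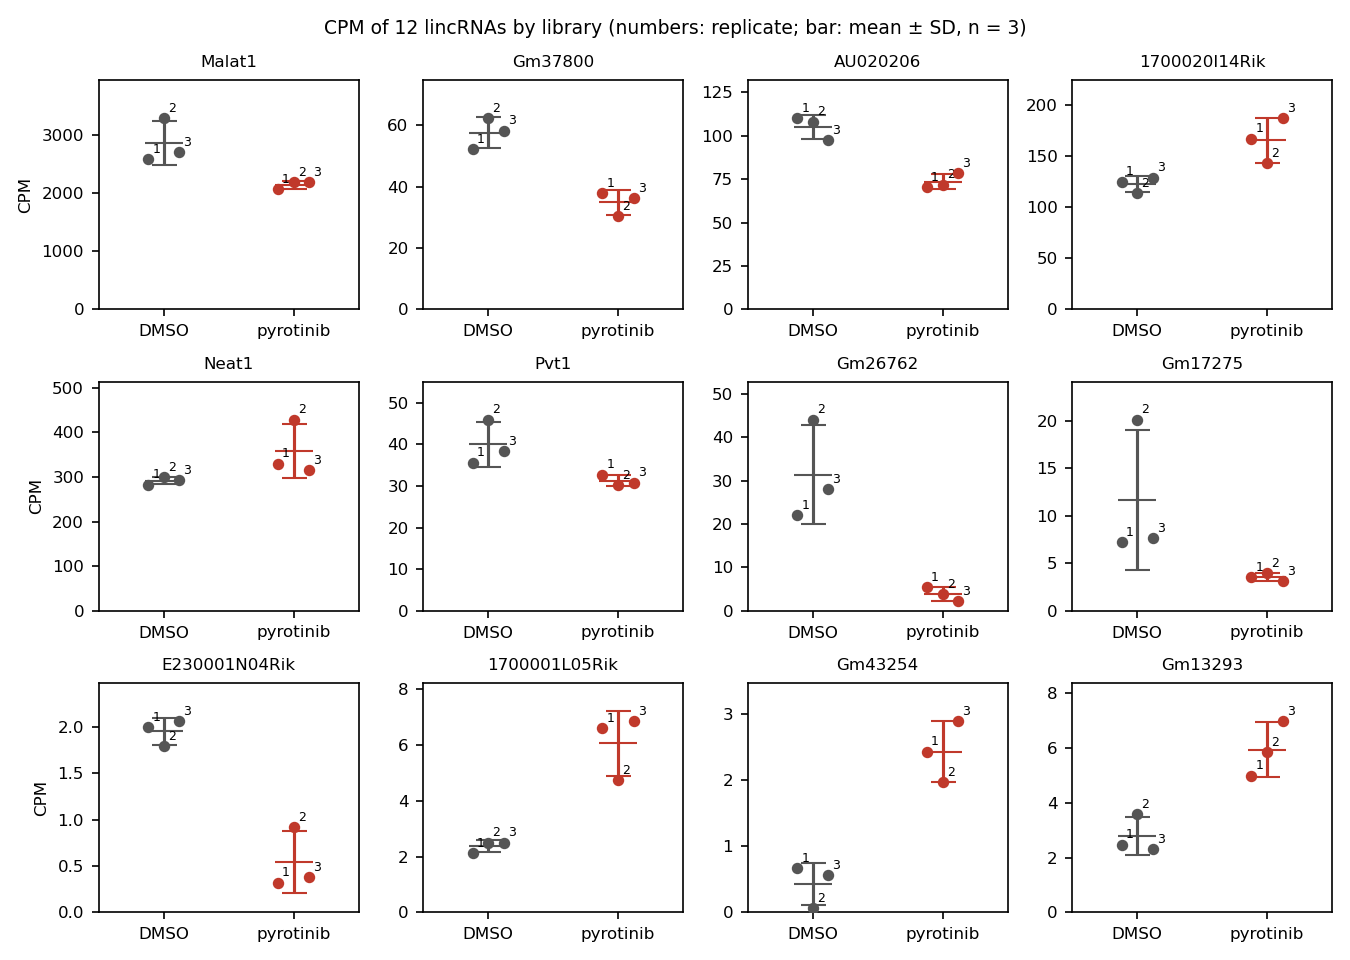
CPM of 12 lincRNAs in each library, with the replicate number beside each point and bars for the mean ± SD (n = 3 per group); each panel starts at 0. In all 12 the groups do not overlap, which was a condition of choice for those named as largest changes. Of the 12, 7 are lower and 5 higher in pyrotinib, and DMSO replicate 2 is far above its group for Gm26762 and Gm17275.

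Among the other abundant lincRNAs, 2 fell in a way that held with each library left out. Gm37800 (chr1:184610280-184629473, minus strand) was at 52.2, 62.3 and 58.3 CPM in DMSO and at 37.9, 30.4 and 36.3 CPM in pyrotinib. The groups were well apart, and the fall was 1.65-fold (log2 fold change -0.73 ± 0.11 SE, adjusted p = 0.00016). The nearest protein-coding gene, the homeobox factor Hlx, lies 97667 bases away and fell 1.42-fold (adjusted p = 0.0045). AU020206 (chr7:75769038-75782099, minus strand) was at 110, 108 and 97.3 CPM in DMSO and at 70.3, 71.8 and 78.6 CPM in pyrotinib. Here too no treated library reached a control, and the fall was 1.43-fold (adjusted p = 0.00049). Gm26809 (chr6:18844220-18847360, plus strand), 1219 bases from the RNA-binding protein gene Lsm8, rose 1.22-fold from 147 ± 10.7 to 179 ± 27.0 CPM (SD, n = 3; adjusted p = 0.046); without pyrotinib replicate 1 the adjusted p was 0.31.

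For 6 of the 10 most abundant no change passed the test. The GC-richest of them, Gm26917 (69.1% GC), had 228 ± 65.6 CPM in DMSO and 191 ± 29.5 in pyrotinib (SD, n = 3; adjusted p = 0.22). The log2 fold changes of the other 5 were -0.09 (1810058I24Rik), 0.12 (Gm10076), -0.34 (Epb41l4aos), 0.09 (Gm13056) and -0.07 (Gm3716), with adjusted p from 0.14 to 0.78. Gm10076 varied most within a group, from 10.3 to 30.2 CPM in pyrotinib.

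The best-studied lincRNAs gave mixed results. 1700020I14Rik, listed by RefSeq as Oip5os1 or Cyrano, is known to direct the decay of miR-7. It was at 125, 114 and 129 CPM in DMSO and at 167, 143 and 187 CPM in pyrotinib, with no overlap and pyrotinib replicate 2 the lowest of the treated. The rise was 1.35-fold (log2 fold change 0.43 ± 0.1 SE, adjusted p = 0.0035), and the log2 fold change was 0.21 after the GC correction (adjusted p = 0.027). 2900097C17Rik lies where RefSeq places Norad, a cytoplasmic RNA that binds Pumilio proteins. Its level was 107 ± 2.65 CPM in DMSO and 106 ± 10.3 in pyrotinib (SD, n = 3), a log2 fold change of -0.01 ± 0.09 SE.

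Several named lincRNAs sit beside growth or p53 genes. Pvt1 (chr15:62037986-62378096, plus strand), next to Myc, was at 35.6, 45.9 and 38.4 CPM in DMSO and at 32.7, 30.2 and 30.8 CPM in pyrotinib. The groups did not overlap, with DMSO replicate 2 the highest. Pvt1 fell 1.28-fold (adjusted p = 0.026; 0.17 without DMSO replicate 2), and Myc had a log2 fold change of -0.21 (adjusted p = 0.11). Lockd, made downstream of the cell cycle inhibitor gene Cdkn1b, fell 1.48-fold from 12.7 ± 1.86 to 8.58 ± 1.68 CPM (SD, n = 3; adjusted p = 0.023, 0.12 without pyrotinib replicate 3), and Cdkn1b itself had a log2 fold change of -0.09 (adjusted p = 0.44). Lncpint, a p53-induced RNA, was at 2.07, 4.99 and 3.74 CPM in DMSO and at 2.11, 1.84 and 1.44 CPM in pyrotinib. Its groups overlapped at DMSO replicate 1, and its 2.0-fold fall (adjusted p = 0.033) had an adjusted p of 0.22 without DMSO replicate 2. Trp53cor1, or lincRNA-p21, beside the p53 target Cdkn1a, had a log2 fold change of 0.37 ± 0.42 SE (adjusted p = 0.54) at 1.12 and 1.47 CPM, and Cdkn1a one of 0.06. The lineage lincRNAs Bvht, Carmn and Lncenc1 had log2 fold changes of 0.14, 0.03 and 0.14 with adjusted p of 0.68 or more.

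Among the 7 hosts of microRNAs found outside chromosome 18, only E130102H24Rik passed the test. E130102H24Rik (chr4:101346531-101356735, minus strand), which contains miR-101a, was at 1.73, 0.96 and 2.06 CPM in DMSO and at 4.03, 2.09 and 4.71 CPM in pyrotinib. The groups met almost at pyrotinib replicate 2 but did not overlap. The rise was 2.27-fold (log2 fold change 1.18 ± 0.36 SE, adjusted p = 0.02); the adjusted p was 0.12 without pyrotinib replicate 3, and pyrotinib replicate 2 alone gave a log2 fold change of 0.4. The log2 fold changes of the other hosts were 0.01 for AL805899.1 (miR-31), -0.5 for 2900076A07Rik (miR-1839), -0.04 for 6720427I07Rik (let-7d), -0.1 for Mir155hg, 0.1 for Mir17hg and 0.47 for A230057D06Rik, which spans the miR-344 genes. Their adjusted p ran from 0.089 to 0.95. By level, AL805899.1 led the hosts at 14.1 FPKM, followed by 2900076A07Rik at 2.94, E130102H24Rik at 2.88, Mir155hg at 2.56 and 6720427I07Rik at 2.06 FPKM. Polyadenylated host RNA does not measure the mature microRNA. Of 9 microRNA processing genes tested, 2 passed, and both rose: Dgcr8, the partner of Drosha (1.52-fold, adjusted p = 0.0016), and Ago1 (1.24-fold, adjusted p = 0.016; 0.1 without DMSO replicate 2). Of all genes tested, 13.2% were higher. In a separate list of 14 microRNA host lincRNA names, 7 were tested, 2 fell (Pvt1 and Lncpint) and 1 rose: Mir99ahg, which is not among the 363, at 2.42-fold (adjusted p = 0.0013).

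The largest intergenic rises, picked among called lincRNAs with a mean of 1 CPM or more and no overlap between groups, were of scarce transcripts. Their lack of overlap, like that of the largest falls and overlapping changes below, was thus set by the choice. Gm43254 (chr3:133307518-133310008, minus strand) was at 0.666, 0.064 and 0.561 CPM in DMSO and at 2.43, 1.97 and 2.89 CPM in pyrotinib. Every treated library stood above every control, and the rise was 5.57-fold (log2 fold change 2.48 ± 0.5 SE, adjusted p = 0.0016). Gm43254 starts 102 bases from the start of Ppa2, a mitochondrial pyrophosphatase gene transcribed the other way, which had a log2 fold change of -0.19 (adjusted p = 0.32). The lincRNA 1700001L05Rik (chr15:83353847-83367282, minus strand), whose GC-box-rich window is printed above, was at 2.13, 2.5 and 2.5 CPM in DMSO and at 6.59, 4.73 and 6.85 CPM in pyrotinib. Its groups were far apart, and the rise was 2.54-fold (log2 fold change 1.35 ± 0.24 SE, adjusted p = 0.0007). Gm13293 (chr2:11339488-11344111, plus strand) was at 2.47, 3.58 and 2.31 CPM in DMSO and at 4.99, 5.84 and 6.97 CPM in pyrotinib. Again without overlap, it rose 2.13-fold (adjusted p = 0.0036), and the nearest protein-coding gene, Prkcq, had no read in any library.

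The other 5 of the 8 largest were Gm47814 (3.22-fold), Gm26981 (3.2-fold), AC130815.2 (2.59-fold), E130102H24Rik and Gm6712 (2.21-fold). Without 1 library the adjusted p was 0.064 for Gm47814 (DMSO replicate 2) and 0.092 for Gm6712 (DMSO replicate 3). Neighbours that rose as well were Riok2, a kinase of small ribosomal subunit maturation near Gm6712, by 1.44-fold (adjusted p = 0.0037), and Ppp1r2, an inhibitor of protein phosphatase 1 near AC130815.2, by 1.27-fold (adjusted p = 0.013; 0.087 without DMSO replicate 3 and 0.071 after the GC correction). Polr3a beside Gm47814 and Rab30 beside Gm26981 had log2 fold changes of 0.09 and 0.17 that did not pass.

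The largest intergenic fall was that of E230001N04Rik (chr17:28522720-28525398, plus strand), at 2.0, 1.79 and 2.06 CPM in DMSO and at 0.32, 0.922 and 0.377 CPM in pyrotinib. All treated libraries lay below all controls, with pyrotinib replicate 2 the highest of the treated. The fall was 3.56-fold (log2 fold change -1.83 ± 0.45 SE, adjusted p = 0.0062), and 5.48-fold without pyrotinib replicate 2 (adjusted p = 0.0017). Fkbp5, a co-chaperone of steroid receptors 5193 bases away, fell from 44.0 ± 3.54 to 33.2 ± 1.96 CPM (SD, n = 3; adjusted p = 0.008, and 0.062 without DMSO replicate 3). Gm7160 (chr1:105979350-105990282, minus strand) was at 4.0, 4.29 and 4.24 CPM in DMSO and at 2.11, 1.84 and 2.26 CPM in pyrotinib. Both groups were tight and apart, a 2.01-fold fall (log2 fold change -1.01 ± 0.26 SE, adjusted p = 0.0079). Gm7160 starts 124 bases from the start of Zcchc2, read the other way, which was at 45.2 CPM in both groups (log2 fold change -0.0 ± 0.09 SE).

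A divergent pair that fell together was 1700018A04Rik (chr13:31565492-31625792, minus strand) and Foxf2, a forkhead factor of mesenchymal cells, whose starts lie 24 bases apart. The lincRNA was at 8.66, 10.0 and 7.42 CPM in DMSO and at 5.37, 5.22 and 6.6 CPM in pyrotinib. Its groups came close without overlap, and it fell 1.52-fold (adjusted p = 0.023, 0.12 without DMSO replicate 2), while Foxf2 fell 1.56-fold from 51.2 ± 5.89 to 32.7 ± 1.8 CPM (SD, n = 3; adjusted p = 0.00037). Gm19705 completed the 8 intergenic falls, at 1.73-fold (adjusted p = 0.039; 0.16 without DMSO replicate 2 and 0.055 after the GC correction).

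Divergent pairs, with starts facing apart and 5 kb or less between them, took in 74 of the 363 lincRNAs, and in 58 of them the gap was at most 1000 bases. Of 72 tested, 9 rose and 3 fell, together 16.7% against 26.0% of all genes. Of these 12 called lincRNAs, 1 had a partner called in the same direction, the Foxf2 pair. Across the 71 pairs with both tested, Pearson r between the log2 fold changes was 0.1 and Spearman rho 0.09, a description over pairs that share libraries.

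For the wider set of intergenic lincRNAs, the nearest protein-coding gene lay a median of 9427 bases away. Over 226 pairs with both tested, 141 moved in 1 direction, and the log2 fold changes had a Pearson r of 0.15 and a Spearman rho of 0.14. Of 43 called lincRNAs with a tested neighbour, 13 had a neighbour called in the same direction, 2 in the other, and 28 had one that was not called; of all genes tested, 26.0% were called, 13.2% higher and 12.8% lower.

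Overlapping lincRNAs were set beside their host, the protein-coding gene they overlap. With the host on the same strand (20 lincRNAs) 8 rose and 3 fell, and with the host on the opposite strand (71 tested) 3 rose and 9 fell; of all genes tested, 13.2% were higher and 12.8% lower. Pearson r between the log2 fold changes of lincRNA and host was 0.68 over 14 same-strand pairs and 0.43 over 61 opposite-strand pairs, with Spearman rho of 0.77 and 0.42. Exons of 61 of the 93 overlapped a protein-coding exon, and the sources used here do not give the strand setting of the authors' counting. Reads of such a lincRNA and its host therefore cannot be told apart where the exons meet. Among called lincRNAs with a tested host, 3 of 7 on the same strand and 3 of 10 on the opposite strand had a host called in the same direction, and 2 opposite-strand hosts were called in the other direction, beside 26.0% of all genes called.

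**Figure D5:**
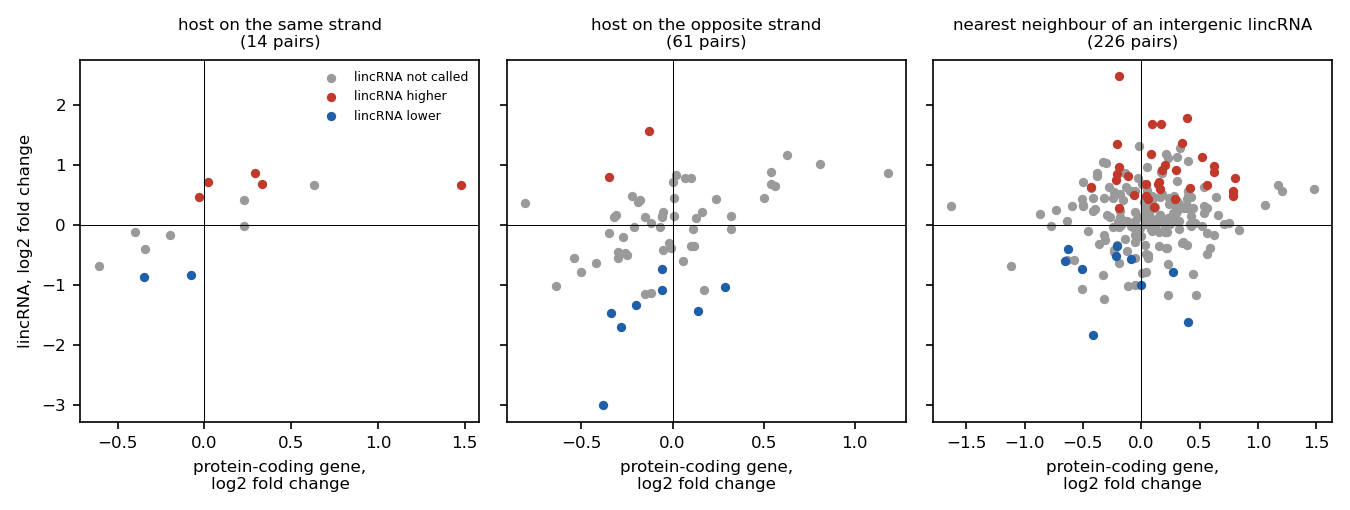
Log2 fold change of each lincRNA (vertical) against that of its protein-coding host on the same strand (14 pairs), its host on the opposite strand (61 pairs) or its nearest neighbour (226 pairs); red lincRNAs rose and blue fell. Points rise from left to right in the host panels (Pearson r 0.68 and 0.43) and form a cloud in the neighbour panel (0.15).

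Gm26762 (chr7:34224755-34230236, plus strand) had the largest fall of the 354 tested. It lies antisense to Gpi1, the gene of the glycolytic enzyme glucose phosphate isomerase, with 741 bases of exon shared. Its level was 22.0, 44.0 and 28.0 CPM in DMSO and 5.5, 3.87 and 2.32 CPM in pyrotinib. DMSO replicate 2 was the highest, yet every treated library lay far below every control. The fall was 8.03-fold (log2 fold change -3.01 ± 0.26 SE, adjusted p = 5.7e-07), and the adjusted p was at most 8e-06 with any library left out. Gpi1 fell 1.3-fold, from 1666 ± 105 to 1277 ± 172 CPM (SD, n = 3; adjusted p = 0.0053).

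The next overlapping falls were also antisense to their hosts. Gm17275 (chr1:180802568-180809483, plus strand) is antisense to the histone variant gene H3f3a, and 638 of its exonic bases overlap protein-coding exons. Its level was 7.2, 20.1 and 7.67 CPM in DMSO and 3.52, 3.99 and 3.14 CPM in pyrotinib. DMSO replicate 2 stood apart from its group, and the groups did not overlap. The fall was 3.28-fold (log2 fold change -1.71 ± 0.31 SE, adjusted p = 0.00086), and 2.1-fold without DMSO replicate 2 (adjusted p = 0.0055). H3f3a fell 1.22-fold (adjusted p = 0.043; 0.18 without pyrotinib replicate 1). Gm26819, with 4168 exonic bases shared with Med10, fell 3.09-fold (adjusted p = 0.019; 0.091 without DMSO replicate 2), and Med10, a Mediator subunit gene, is listed at 0 in all libraries. Gm42161, antisense to 2900026A02Rik with no shared exon, fell 2.77-fold (adjusted p = 0.017; 0.082 without DMSO replicate 3), and the host fell 1.26-fold (adjusted p = 0.011; 0.055 without DMSO replicate 1 and 0.066 after the GC correction).

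Overlapping rises were smaller in fold. Gm45250 (chr8:26151888-26155479, minus strand) rose 2.13-fold, from 2.33, 1.98 and 2.93 CPM in DMSO to 5.57, 5.28 and 4.65 CPM in pyrotinib (adjusted p = 0.0036). Its groups were well separated, and Rnf170, a ubiquitin ligase gene 98 bases away, had a log2 fold change of 0.64 (adjusted p = 0.007). Gm17354 rose 2.97-fold (adjusted p = 0.011; 0.071 without DMSO replicate 2) while its antisense host Cc2d1b had a log2 fold change of -0.13 (adjusted p = 0.5) and Zfyve9, 25 bases away, one of 0.54 (adjusted p = 0.0049). Gm42743, which overlaps the histone gene Hist2h2bb on the same strand, rose 2.68-fold (adjusted p = 0.0099), and Hist2h2bb had no read in any library. Protein-coding exons overlap 226 exonic bases of Gm42743 and 281 of Gm17354. The lincRNA 6030443J06Rik, whose start is 3 bases from that of the replication origin gene Orc5, rose 2.53-fold (adjusted p = 0.024; 0.12 without DMSO replicate 3), and Orc5 had a log2 fold change of 0.14 (adjusted p = 0.37).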

How the data were processed

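Poly(A) RNA-seq of 6 TM3 libraries was read from the deposited table, which holds read counts per gene and FPKM made by the authors. The submitters' processing notes name fastp, HISAT2 2.0.5, featureCounts 1.5.0-p3, DESeq2 1.20.0 and build mm10; the sources used here do not give the strand setting. Deposited FPKM served for levels between genes and counts for all tests. Each library total was 15005737 to 16171030 reads. The labels do not say that replicates were separate cultures, so p-values measure the spread between these libraries, which may be technical. Intervals of error cover these libraries only.

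Counts were fitted with edgeR 4.0.16 in R 4.3.3 (quasi-likelihood F-test, two-sided, TMM scaling, filterByExpr with a minimum count of 10), group as the single term, over 14125 genes, with Benjamini-Hochberg adjustment and a threshold of 0.05. The standard error is the absolute log2 fold change over the square root of F. CPM are TMM-scaled. All 363 lincRNAs were found in GENCODE M21, 355 at identical positions, and 10 have another type there; that annotation gave exons and GC content. A host is the protein-coding gene with the longest overlap, and a neighbour the nearest by gap.

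Alternatives were DESeq2 1.42.0, limma-voom (limma 3.58.1), other scalings and filters, a replicate block, limma on log2(FPKM + 0.1 or 1), a lowess GC correction, pyrotinib replicate 2 alone, and each library left out. On simulated counts for this comparison with 14125 genes, the test recovered 62% of genes changed 1.5-fold and 90% of those changed 2-fold, and 5.06% of its calls were unchanged genes. The changed genes, 50 at each fold, were drawn at random from all 14125. These rates therefore do not measure recovery at the lower levels of most lincRNAs. Library pairs within a group differed by 4.16 to 16.3 chi-square per degree of freedom, so none was a repeat deposit.

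LincRNAs named are the 10 with the highest FPKM, the 8 largest intergenic and 4 largest overlapping changes each way (mean of at least 1 CPM, no overlap between groups), their hosts or neighbours, and a fixed list of known lincRNAs. The neighbour of 1 named lincRNA is not reported here. Members and lists were chosen with earlier results of these data known. No test was run over a list.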

Additional observations from a re-analysis of the deposited data

How the results depend on the processing

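Counts below are in the order all lincRNAs higher and lower, intergenic higher and lower, overlapping higher and lower; the values to compare are 48 and 23, 37 and 11, 11 and 12. DESeq2 (39 and 19), limma-voom, other scalings, count filters and the replicate block (51 and 24) stayed within 1.5 times of each. Pyrotinib replicate 2 alone gave 7 and 7, 4 and 3, 3 and 4, with an overlapping median of -0.093; the lone treated library is assumed to vary like the controls. limma on log2(FPKM + 0.1) with a mean of at least 0.1 gave 14 and 8, 11 and 5, 3 and 3, with an overlapping median of -0.01; with no filter it gave 5 and 5, 4 and 3, 1 and 2, and a median of -0.01. log2(FPKM + 1) gave 13 and 8, 10 and 5, 3 and 3, and an intergenic median of 0.067. The overlapping median was -0.006 after the GC correction. An adjusted p under 0.01 left 20 and 11, 16 and 5, 4 and 6. With overlap counted on the same strand only, 20 intergenic and 3 overlapping lincRNAs were lower and the overlapping median was 0.374. Intergenic lincRNAs with no protein-coding gene within 5000 bases gave 19 higher and 7 lower. Leaving out each library gave 16 to 58 and 10 to 25 in all, 12 to 45 and 5 to 13 intergenic, 4 to 13 and 5 to 12 overlapping, intergenic medians of 0.132 to 0.231 and overlapping medians of -0.013 to 0.131; the lowest counts were without DMSO replicate 2. The causes were not tested.

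The share of calls that were higher was 67.6% by median-ratio scaling and by upper-quartile scaling, and 61.9% after the GC correction. Over 42 named lincRNAs, 620 of 787 values kept direction and side of the threshold, 142 lost the call, 3 gained it and 22 changed sign, all 22 for lincRNAs that did not pass the test. Sign changes with replicate 2 alone were 1810058I24Rik (0.03), Gm10076 (-0.66), Gm3716 (0.04) and Lncenc1 (-0.01). With log2(FPKM + 0.1), filtered or not, Gm10076 was -0.03 and Lncenc1 -0.01, and with log2(FPKM + 1) Gm10076 was -0.03. limma-voom gave -0.02 for Gm10076 and -0.07 for Lncenc1, and the GC correction -0.1 for Mir17hg. With libraries left out in turn, ranges that crossed 0 were those of 2900097C17Rik (-0.08 to 0.05), Mir17hg (-0.03 to 0.32), Carmn (-0.11 to 0.24), Lncenc1 (-0.46 to 0.51), Gm10076 (-0.49 to 0.4) and Gm13056 (-0.03 at the lowest); Carmn was -0.07 without DMSO replicate 3, and 2900097C17Rik 0.02 without pyrotinib replicate 1.

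Samples with the same number did not deviate together (correlations 0.005, 0.076 and 0.023), so the numbers were not taken as pairs; with the replicate block, medians were 0.169 (intergenic) and 0.034 (overlapping).

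Depth limits the 180 lincRNAs under a mean of 2 CPM, where 3 reads are worth 0.184 to 0.2 CPM.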

Other observations

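The 363 lincRNAs were spread over all 19 autosomes, from 7 on chromosome 18 to 40 on chromosome 5, with 33 on chromosome 17. Within 20 kb of each other lay 31 pairs, of which 24 moved in 1 direction. In 3 pairs both lincRNAs were called, each time in the same direction; these pairs were picked after their values were seen. Gm13293 and 8030442B05Rik overlap on opposite strands, and both rose, by 1.09 and 2.2 on the log2 scale. Gm26809 and Gm20186, on opposite strands beside Lsm8, rose by 0.28 and 0.96. Without pyrotinib replicate 1 the adjusted p was 0.31 for Gm26809 and 0.24 for Gm20186. Gm47469 and Gm46430, on the same strand and 15102 bases apart, rose by 0.49 and 0.69. The adjusted p of Gm47469 was 0.14 without DMSO replicate 1 and 0.35 after the GC correction.

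Of the 93 overlapping lincRNAs, 6 have the gene model Gm20388 as host, which spans 4434882 bases and has no read in any library. Zfp469, a member of that group that RefSeq types as protein-coding, was at 21.8, 16.5 and 21.2 CPM in DMSO and at 32.1, 36.0 and 30.8 CPM in pyrotinib. Its groups did not overlap, and its log2 fold change was 0.73 (adjusted p = 0.00048).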
